A study of Mus musculus with 12 samples.

Results

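Collagen genes other than type IV were followed through organoid culture and kidney development. Members were genes whose name on the array is Col, a type number, a and a chain number, with type IV left out. There were 38 of 24468 genes with a symbol: 11 fibrillar, 9 FACIT (fibril-associated), 6 beaded, 4 transmembrane and 3 network genes, and 5 others. Kidney organoids were built from nephron progenitors and ureteric bud grown out of mouse embryonic stem cells (mESC) of B6 and 129SV background, joined with stromal progenitors taken from wild-type ICR kidney at E11.5 (E gives the day of embryonic life). The groups were organoids cultured for 7 days (day 7, 3 arrays), organoids just after assembly (day 0, 3 arrays), ICR E11.5 kidney cultured for 7 days, and fresh ICR kidney without ureter from E11.5 to birth (P0), with E13.5, E15.5 and E17.5 in between. Each kidney group was 1 array. Organoids and kidneys therefore differ in genotype as well as in origin, while the stroma of both is of ICR origin. Cultures of both kinds stood on membrane inserts with Matrigel, itself a basement membrane extract, in medium with serum.

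Collagens are built from 3 chains that wind into a triple helix, and the helical part of every chain is a run of Gly-X-Y triplets, with glycine leading each. Fibrillar types I, III and V form the bulk fibrils of connective tissue, FACIT chains sit on fibril surfaces, and type VI forms beaded filaments around cells. Transmembrane types anchor cells to matrix, type VIII forms sheet-like networks, and types XV and XVIII lie at basement membranes. In the developing kidney, interstitial collagens belong mainly to stroma, vessel walls and capsule.

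Values are log2 of the processed signal minus the log2 of the array's 75th percentile of signal, so 0 is the level of that percentile and differences are log2 differences. They cannot rank one gene's level against another's, because probes differ in brightness. That percentile came to a signal of 201 to 287 on day 7 and kidney arrays and of 126 to 138 on day 0 arrays, and the number of arrays limits the precision. Nothing in the labels says that organoid arrays came from separate cultures, and p-values cover no more than the spread among these arrays, which may be technical. Slide 2 carried the day 7 arrays with day 0 replicate 3, and slide 1 carried day 0 replicates 1 and 2 with the 6 kidney arrays. All 8 kidney epithelial markers (such as Pax2 and Wt1) were well above background on each of the 12 arrays. RNA came from whole tissue, so fewer cells of a type and less RNA per cell cannot be told apart.

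The glycine repeat can be read from the probes themselves. Of 60 member probes, 2 lay wholly within the triplet repeat, with a GGN codon, for glycine, at the head of each triplet (in capitals). The Col15a1 probe, which stood for its gene, is at chr4:47283786-47283845, plus strand, and the second Col25a1 probe at chr3:130270497-130270556, plus strand (both mm9, the build named in the file headers).
Col15a1: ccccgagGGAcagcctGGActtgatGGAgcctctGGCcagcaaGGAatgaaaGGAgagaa
Col25a1: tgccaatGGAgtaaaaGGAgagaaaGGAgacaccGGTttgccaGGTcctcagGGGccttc
The Col15a1 probe changed by 3.08 and this Col25a1 probe by -1.45 in day 7 against day 0 organoids. The kept Col25a1 probe changed by -1.24. Of 10 members with several probes above background on at least 6 arrays, 0 had probes that disagreed in the sign of that change.

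Upstream sequence is shown for the 4 type VI genes that were tested in organoids, Col6a1 to Col6a4, each of which rose, and for Col3a1 and Col17a1, which hold TATAAA. RefSeq promoters of build GRCm38.p6 were found for 30 of the 38 members, as 33 starts. Capitals in the 250 bases before the start mark 3 motifs on either strand, TATAAA (the TATA box), CCAAT (the CCAAT box) and GGGCGG (the GC box), none of which contains another.
Col6a1, chr10:76726045-76726294, minus strand: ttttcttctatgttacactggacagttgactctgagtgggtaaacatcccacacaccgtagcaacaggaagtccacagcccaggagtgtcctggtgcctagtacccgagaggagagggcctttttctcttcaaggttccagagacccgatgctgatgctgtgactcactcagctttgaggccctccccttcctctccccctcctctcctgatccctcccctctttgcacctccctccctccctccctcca
Col6a2, chr10:76623631-76623880, minus strand: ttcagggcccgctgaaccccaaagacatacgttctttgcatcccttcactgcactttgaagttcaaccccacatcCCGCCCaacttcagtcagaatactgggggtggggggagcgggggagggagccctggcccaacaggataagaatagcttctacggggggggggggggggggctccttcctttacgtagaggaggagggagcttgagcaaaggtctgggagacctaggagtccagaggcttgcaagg
Col6a3, chr1:90843972-90844221, minus strand: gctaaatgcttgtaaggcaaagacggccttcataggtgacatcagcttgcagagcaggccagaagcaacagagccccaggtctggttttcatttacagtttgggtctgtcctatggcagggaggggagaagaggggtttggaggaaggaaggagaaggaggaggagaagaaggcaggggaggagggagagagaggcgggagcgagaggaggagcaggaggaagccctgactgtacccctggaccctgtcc
Col6a4, chr9:106096692-106096941, minus strand: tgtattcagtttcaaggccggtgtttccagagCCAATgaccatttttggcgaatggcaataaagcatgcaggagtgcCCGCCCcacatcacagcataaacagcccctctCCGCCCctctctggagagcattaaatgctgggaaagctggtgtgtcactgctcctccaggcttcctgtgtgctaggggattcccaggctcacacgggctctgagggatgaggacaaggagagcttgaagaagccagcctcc
Col3a1, chr1:45311288-45311537, plus strand: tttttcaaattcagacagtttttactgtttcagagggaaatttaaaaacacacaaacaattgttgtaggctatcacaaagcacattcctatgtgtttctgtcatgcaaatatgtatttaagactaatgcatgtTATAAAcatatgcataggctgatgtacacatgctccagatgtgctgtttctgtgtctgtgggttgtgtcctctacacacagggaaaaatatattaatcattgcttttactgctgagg
Col17a1, chr19:47692043-47692292, minus strand: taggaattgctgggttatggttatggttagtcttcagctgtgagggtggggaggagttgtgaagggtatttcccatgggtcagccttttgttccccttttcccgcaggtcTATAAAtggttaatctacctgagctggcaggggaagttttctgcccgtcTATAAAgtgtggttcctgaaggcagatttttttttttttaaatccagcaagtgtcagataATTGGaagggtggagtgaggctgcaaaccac
TATAAA was in 5 of the 33 member promoters (15.2%), against 12.4% of 32851 promoters of the same length. Counted from the start, it began at base -117 in Col3a1 and at -140 and -91 in Col17a1. In the members not shown it began at -32 in Col10a1, -143 in Col11a2 and -237 in Col13a1. The match is of letters only, and whether any acts as a TATA box was not tested. CCAAT was in 10 (30.3%), against 33.8%, and GGGCGG in 19 (57.6%), against 32.7%. Col6a1 and Col6a3 held none of the motifs in these windows, whereas Col6a2 held the GC box and Col6a4 both the GC box and the CCAAT box. Col6a2 has a second start, not shown, whose window (chr10:76623405-76623654) held 3 GC box matches. Col6a1 and Col6a2 are direct neighbours on the chromosome, with 0 protein-coding genes between them in RefSeq, and Col6a4, Col6a5 and Col6a6 also lie in a row.

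The first comparison asked how collagen RNA changed while organoids were cultured. Most members were higher at day 7, among them Col6a1, Col6a2, Col6a3, Col6a4, Col12a1, Col16a1, Col7a1, Col8a1 and Col18a1. Of the 38 members, 24 rose, 5 fell, 3 did not pass the test and 6 were not tested because no group was above background throughout. Over 16628 genes tested, 28.4% rose and 41.5% fell (limma, adjusted p under 0.05), and the median change was -0.17 over all genes and 1.34 over the 32 members tested. The organoid groups did not overlap for 31 of the 32, the exception being Col23a1, against 76% of all genes. Col6a4, Col13a1, Col15a1 and Col17a1 were tested only because day 7 arrays were above background, so each had to differ. Where genes had to be above background on every organoid array, 21 members rose and 5 fell. Normexp background correction, which adds an offset, shrank the changes of dim genes, to 1.06 for Col6a4 and 0.19 for Col15a1.

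**Figure D1:**
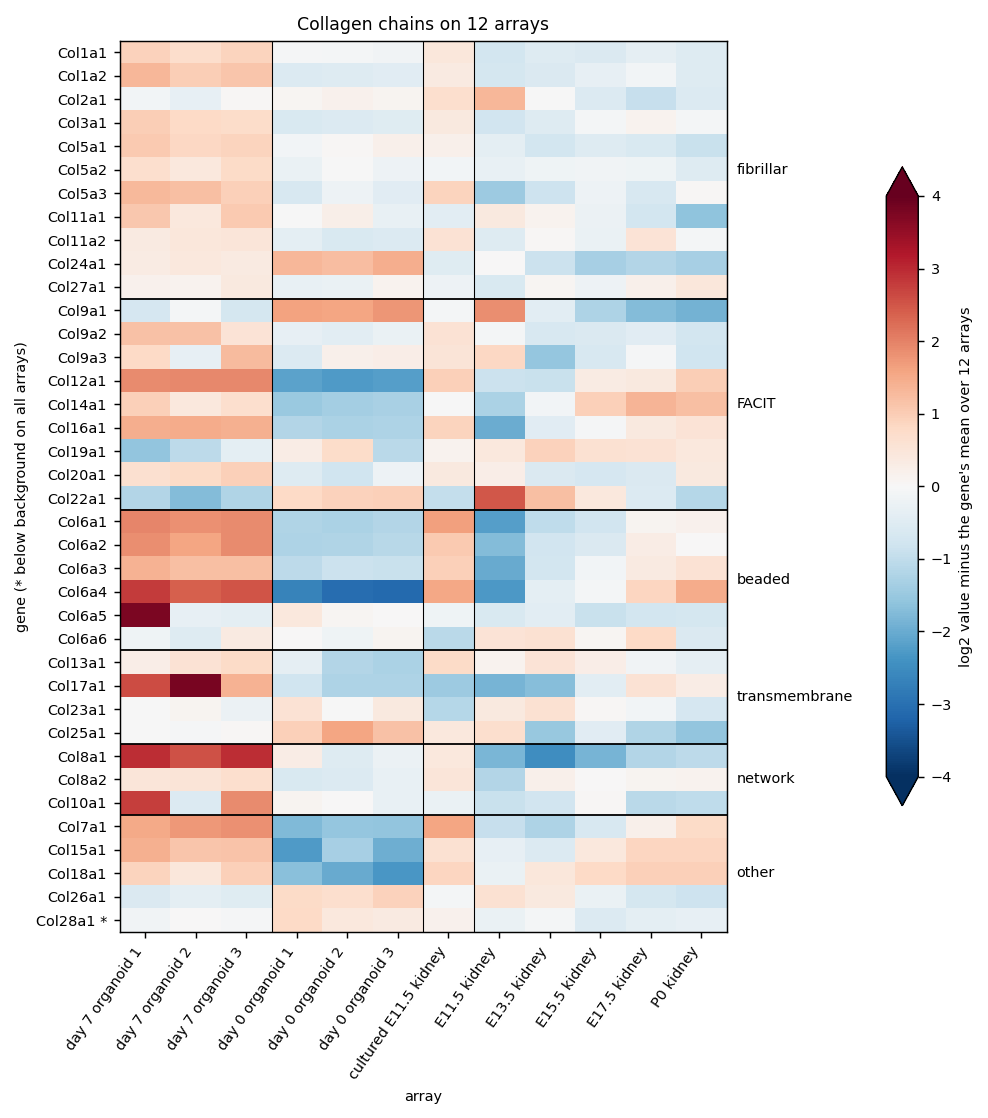
Log2 value of each of the 38 collagen genes (rows, by class) on each of the 12 arrays (columns) minus that gene's mean over the arrays; the colour scale ends at 4 log2 units either way. Red cells gather in the 3 day 7 organoid columns and the cultured kidney, while Col9a1 and Col22a1 are red in E11.5 kidney and day 0 organoids.

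Most fibrillar chains rose. Of 11, 8 rose by 0.78 to 1.65, 1 fell (Col24a1) and 2 did not pass the test (Col2a1 and Col27a1), with a median of 0.88. Col1a2, the second chain of type I collagen, had 8.36, 8.01 and 8.12 at day 7, against 6.46, 6.50 and 6.57 at day 0. The groups stood apart by more than their spread, a rise of 1.65 ± 0.11 (SE, 3.14-fold, adjusted p = 3.4e-05). Col3a1, the single chain of type III collagen, had 6.46, 6.25 and 6.20 at day 7, against 4.84, 4.92 and 4.99 at day 0, and rose by 1.39 ± 0.10. Col5a3, a minor chain of type V collagen, had -0.17, -0.26 and -0.51 at day 7, against -2.10, -1.66 and -1.91 at day 0, and rose by 1.58 ± 0.14. Col24a1, a fibrillar chain of developing bone and eye, had -1.20, -1.11 and -1.19 at day 7, against -0.21, -0.31 and -0.09 at day 0, and fell by 0.96 (adjusted p = 0.00012). Col1a1, Col5a1, Col5a2, Col11a1 and Col11a2 rose by 0.78 to 0.95, and Col11a2 turned to -0.13 with normexp correction. Col2a1, the main chain of cartilage fibrils, averaged 3.13 ± 0.19 at day 7 and 3.39 ± 0.05 at day 0 (SD, n = 3 each; adjusted p = 0.080).

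FACIT chains moved both ways. Of 9, 5 rose, 2 fell and 2 (Col9a3 and Col19a1) were not tested. Col12a1, a chain of fibril surfaces in tendon, ligament and muscle connective tissue, had 2.15, 2.17 and 2.17 at day 7, against -1.88, -2.02 and -1.95 at day 0. It rose 17.3-fold (4.11 ± 0.07, adjusted p = 1.2e-06), with close replicates, and by 1.75 as the mean of its probes. Its other probe was above background on 0 of 12 arrays, so that mean includes values with no measured level. Col16a1, a FACIT chain made by fibroblasts and smooth muscle, had 5.20, 5.22 and 5.15 at day 7, against 2.57, 2.47 and 2.51 at day 0, and rose 6.39-fold. Col22a1, a chain of muscle and tendon junctions, had -3.54, -4.10 and -3.57 at day 7, against -1.56, -1.46 and -1.42 at day 0, and was 4.79-fold lower. Col9a1, a cartilage chain of type IX, had 0.39, 0.99 and 0.36 at day 7, against 2.68, 2.65 and 2.83 at day 0, and was 4.42-fold lower. The mean of its probes fell by 1.196 (adjusted p = 0.0163), the second being above background on 5 of 12 arrays. Its partner chain Col9a2 rose instead, by 1.30 ± 0.18, so the chains of type IX did not move together. Col14a1, a FACIT chain of dense connective tissue, rose by 2.06 ± 0.14. Col20a1 rose by 1.29 ± 0.17, and by 0.035 (adjusted p = 0.662) with normexp correction.

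Of the beaded genes, all 4 that were tested rose, and the other 2 (Col6a5 and Col6a6) were not tested. Col6a1, Col6a2 and Col6a3 encode the chains of the main type VI heterotrimer. Col6a1 had 5.87, 5.77 and 5.82 at day 7, against 2.73, 2.68 and 2.76 at day 0, a rise of 8.54-fold (3.09 ± 0.07, adjusted p = 1.7e-06). Col6a2 had 3.55, 3.27 and 3.58 at day 7, against 0.47, 0.49 and 0.59 at day 0, and rose 7.73-fold. Col6a3 had 4.02, 3.83 and 3.83 at day 7, against 1.60, 1.78 and 1.73 at day 0, and rose 4.55-fold. In each of these 3 genes the groups were far apart and the replicates close. Col6a4, an alternative chain that can stand in for the third, had -0.84, -1.27 and -1.13 at day 7, against -6.32, -6.68 and -6.76 at day 0, where it was not well above background on any array. A fold against such a group is given as "at least", a bound on this scale only. It uses the lowest signal well above background on each array, or the gene's own value where that was higher. That signal comes from any probe and is no detection limit of the gene's own probe, and normexp correction can give less. For Col6a4 the bound was 11.6-fold. The mean of the Col6a4 probes rose by 3.30 on the log2 scale, the other probe being above background on 1 of 12 arrays. Col6a5 was above background on 1 array, day 7 replicate 1, at -2.78, with -6.85 and -6.93 on the other day 7 arrays and -6.12 to -6.53 at day 0.

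**Figure D2:**
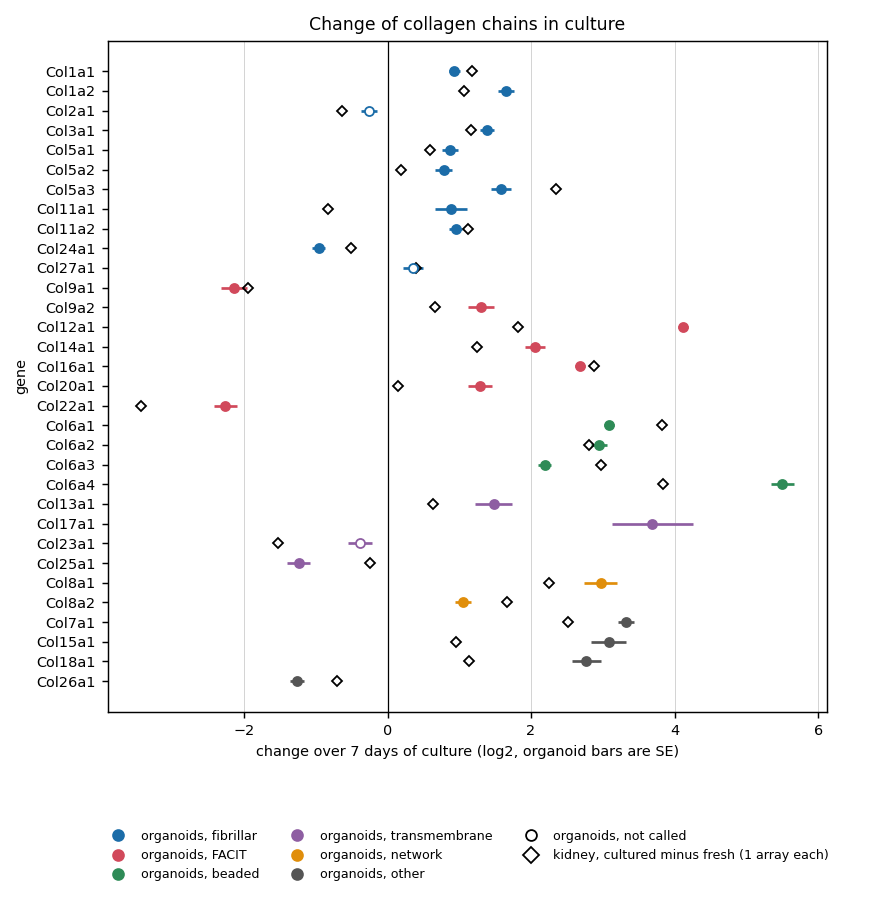
Change over 7 days of culture in log2 units for each collagen gene tested in organoids: filled circles with SE bars are day 7 minus day 0 organoids (3 arrays each), open circles did not pass the test, and diamonds are cultured minus fresh E11.5 kidney (1 array each, drawn where at least 1 array was above background). Col12a1 and Col6a4 sit well to the right of their diamonds, and Col9a1 and Col22a1 lie left of 0 for both.

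Of the 4 transmembrane genes, Col13a1 and Col17a1 rose, Col25a1 fell and Col23a1 did not pass the test. Col17a1, part of the hemidesmosomes that tie basal epithelial cells to matrix, had -2.65, -1.47 and -3.88 at day 7, against -6.07, -6.49 and -6.51 at day 0. It was at least 3.87-fold higher (adjusted p = 0.0012), with a day 7 spread (SD 1.21) that was the widest of any member above background on all day 7 arrays. Leaving out replicate 2 lowered the difference to 3.09, and normexp correction lowered it to 0.23 (adjusted p = 0.264). Among markers picked out after their values were seen, the basal cell keratin Krt5 had 2.27, 4.46 and -1.11 on the same day 7 arrays, against -2.82, -2.78 and -3.50 at day 0. Upk3a, of the urothelial surface, had 0.85, 2.94 and -0.78 at day 7, against -6.21, -6.01 and -6.61 at day 0. The 3 genes shared the order of the day 7 arrays. The summed log2 level of the 5 basal and urothelial markers was 2.94 to 5.66 at day 7 and 3.07 to 3.33 at day 0. These sums overlapped, while 4 of the 5 markers rose and Trp63 fell. Trp63 made up nearly all of the day 0 sum and was lower on each day 7 array than on any day 0 array. The overlap therefore says little about the other 4. The part of basal and urothelial cells in the Col17a1 result was not tested. Col25a1, a chain needed for motor innervation of muscle, had -1.48, -1.52 and -1.42 at day 7, against -0.52, 0.12 and -0.30 at day 0, and was 2.36-fold lower. Col13a1, a chain of neuromuscular junctions, had -3.34, -3.02 and -2.83 at day 7, against -3.97, -4.78 and -4.88 at day 0, below background there. It was at least 2.73-fold higher, though its sign turned with normexp correction (-0.085).

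Both type VIII genes rose, and Col10a1 was not tested. Col8a1, a network chain of vessel walls and other subendothelial matrix, had 0.65, 0.24 and 0.67 at day 7, against -2.0, -2.82 and -2.53 at day 0, and rose 7.83-fold. Col8a2 had 1.24, 1.28 and 1.43 at day 7, against 0.16, 0.20 and 0.45 at day 0, and rose 2.07-fold. Col10a1, the network chain of hypertrophic cartilage, was above background on 2 arrays, with -3.47, -6.79 and -4.36 at day 7 and -6.13 to -6.55 at day 0.

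Of the 5 others, 3 rose, Col26a1 fell and Col28a1 was below background on each of the 12 arrays. Col7a1, the chain of anchoring fibrils under epithelia, had 1.93, 2.14 and 2.24 at day 7, against -1.36, -1.13 and -1.16 at day 0, and rose 9.98-fold (adjusted p = 3.6e-06). Col15a1, a proteoglycan-bearing chain of vessel and muscle basement membranes, had -2.30, -2.60 and -2.57 at day 7, against -5.99, -5.04 and -5.68 at day 0, below background there, and was at least 4.38-fold higher. Col18a1, the precursor of endostatin, had 5.89, 5.46 and 5.96 at day 7, against 3.33, 3.0 and 2.68 at day 0, and rose 6.80-fold. Col26a1, a short chain with an EMI domain, had 4.71, 4.90 and 4.82 at day 7, against 6.05, 5.95 and 6.21 at day 0, and was 2.40-fold lower. The groups did not overlap for any of these 4, against 76% of 16628 genes. Col15a1 was tested only because day 7 arrays were above background, so it had to differ.

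Several markers of other cells moved along with these genes, and their part in the results was not tested. Over all 16628 genes tested, 28.4% rose and 41.5% fell. All 5 smooth muscle markers rose, and their summed log2 level was 9.0 to 9.31 at day 7 and 4.86 to 5.30 at day 0. Of 7 endothelial markers 6 rose and 1 fell, with sums of 3.20 to 3.85 at day 7 and 3.58 to 3.72 at day 0. Kdr, the marker that fell, had 2.43 to 2.60 at day 7 and 3.52 to 3.67 at day 0 and made up most of the day 0 sum, while the other 6 rose by 1.91 to 4.52. Skeletal muscle markers, 4 of 6 tested lower and 1 higher, summed to 0.36 to 0.81 at day 7 and 1.63 to 1.68 at day 0, beside the falls of Col22a1 and Col25a1. Of the 9 markers on that list, 2 were below background on every array. Cartilage markers, 4 higher and 3 lower of 8 tested, summed to 5.55 to 5.69 at day 7 and 4.97 to 5.28 at day 0, beside the fall of Col9a1, and 2 of that list of 10 were below background throughout. Sox5 made up nearly all of the cartilage sum, with 5.51 to 5.66 at day 7 and 4.90 to 5.22 at day 0, and the median change of the 8 was 0.14. Of 8 renal stroma markers 4 rose and 4 fell.

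Genes that make collagen moved mostly upward as well. Of 29 genes for chain modification, secretion, trimming and cross-linking, 28 were tested, 21 rose and 3 fell, with a median of 0.76. Over all 16628 genes tested, 28.4% rose and 41.5% fell, with a median of -0.17. Lox, an enzyme that starts cross-links between chains, had 1.96, 1.90 and 1.58 at day 7, against -2.83, -3.35 and -2.94 at day 0, a rise of 29.0-fold. Adamts2, which removes the amino-terminal propeptide of fibrillar collagens, had 4.41, 4.02 and 4.01 at day 7, against -0.39, -0.19 and -0.05 at day 0, and rose 20.5-fold. Pcolce2, an enhancer of carboxy-terminal propeptide removal, rose 14.4-fold, P3h2, a prolyl 3-hydroxylase, 11.8-fold, and Loxl4, another cross-linking enzyme, 8.42-fold. At day 0 Pcolce2 and Loxl4 were above background on 1 of 3 arrays and P3h2 on 2 of 3, so these 3 folds rest partly on values with no measured level. Bmp1 and Tll1, the proteinases that cut the carboxy-terminal propeptide, fell by 0.64 and 0.59, and Mia3, an export factor for collagen at the endoplasmic reticulum, fell by 0.28. The synthesis chaperone Serpinh1 rose by 0.50. Of 10 collagen receptors 9 were tested, 6 rose and Mrc2 fell, with a median of 1.07. Itga1 and Itga11, integrin alpha chains that bind collagen, rose 19.1-fold and 16.2-fold, Itga2 at least 3.05-fold, and Ddr1 and Itgb1 2.38-fold and 2.10-fold.

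The next comparison asked how E11.5 kidney changed in the same 7 days. It rests on 1 cultured and 1 fresh array and has no test. Of 33 members above background on at least 1 of them, 16 were over 2-fold higher in cultured kidney and 4 over 2-fold lower, against 13% and 8.54% of 17853 genes. Col6a6, among the 4 lower, was below background in cultured kidney and counted only because the fresh array was above background. Its fall therefore ends at a value with no measured level and is not shown to be over 2-fold. With normexp correction Col6a6 was no longer over 2-fold lower, and Col11a2, Col6a4 and Col8a1 were no longer over 2-fold higher. Col6a1 had 5.56 in cultured kidney and 1.73 in fresh kidney, a difference of 3.83, and Col16a1 had 4.64 in cultured kidney and 1.77 in fresh kidney. Col6a4 was at least 9.25-fold higher in cultured kidney. All 5 smooth muscle markers were over 2-fold higher there as well, with a median of 6.06 and sums of 7.43 in cultured kidney and 2.74 in fresh kidney, and the urothelial marker Upk3a was at least 255-fold higher. Their part in the collagen values was not tested. Col22a1 was 10.8-fold lower (-3.33 in cultured kidney, 0.11 in fresh kidney) and Col9a1 3.84-fold lower (1.0 in cultured kidney, 2.94 in fresh kidney).

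Whether the organoid change differed from the kidney change was tested directly, with fresh and cultured kidney and both organoid groups in 1 fit. Of 34 members tested, 4 (11.8%) had a more positive change in organoids and 2 (5.88%) a less positive one. The shares of all 18003 genes were close to these, at 8.47% and 6.85%. The difference was 2.30 ± 0.14 for Col12a1 (adjusted p = 0.0017), which rose 17.3-fold in organoids and was 3.52-fold higher in cultured kidney. In kidney it had 1.21 after culture and -0.61 before. As the mean of its probes, the other of which was above background on no array, the difference was 0.695 and did not pass. Col15a1 differed by 2.12 ± 0.50, with -3.11 in cultured kidney and -4.06 in fresh kidney, and Col6a4 by 1.66 ± 0.33, with -2.10 in cultured kidney and -5.95 in fresh kidney. For Col6a4 both starting groups were below background, and for Col15a1 the day 0 arrays were, so these differences have no measured base. With normexp correction they came to -0.105 for Col15a1 and 0.070 for Col6a4. Col18a1 differed by 1.63 ± 0.41, at the edge of the threshold (adjusted p = 0.04997), with 5.88 in cultured kidney and 4.75 in fresh kidney. Col6a1 (-0.73 ± 0.14) and Col6a3 (-0.78 ± 0.19) gained less in organoids than in kidney. Col6a3 had 3.58 in cultured kidney and 0.61 in fresh kidney. Its difference did not pass with any single organoid array left out, with no filter on dim probes or with slide as a block. In the same test 5 of 7 endothelial markers had a more positive change in organoids and 1 a less positive one (median 4.10), and 2 of 5 smooth muscle and 3 of 8 renal stroma markers had a less positive one. Their part in these differences was not tested. Col6a1 and Col6a3 did not pass with median scaling, and without any 1 of the day 7 replicates or day 0 replicate 1 the count on that side was 0. The count of 4 came to 2 without day 7 replicate 1 and to 2 without day 7 replicate 3, and the count of 2 to 1 without day 0 replicate 3.

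Day 7 organoids were then set against E11.5 kidney of the same culture time. Of 32 members tested, 8 were higher in organoids and 1 lower, against 4.52% and 3.22% of 17133 genes, with a median difference of 0.41. Over all genes 774 were higher and 552 lower, or 1390 and 359 with median scaling. Col8a1 was 5.26-fold higher, at 0.52 ± 0.24 in day 7 organoids (SD, n = 3) and -1.88 in cultured kidney (limma, adjusted p = 0.013). Col12a1 was 1.94-fold higher. Col17a1, also among the 8, was at least 5.49-fold higher. It was below background in cultured kidney and was tested only because day 7 arrays were above background, so it had to differ. Col17a1 did not pass with normexp correction, without day 7 replicate 1 or without any single day 0 replicate. Col12a1, Col16a1 and Col6a2 did not pass as the mean of their probes (0.392, 0.138 and 0.358). The other Col12a1 probe was above background on 0 of 12 arrays and the dimmest Col16a1 probe on 1 of 12. Col1a2, Col5a1, Col6a2, Col16a1 and Col24a1 were also higher, by 0.55 to 0.85, and Col2a1 was lower by 0.80. All day 7 arrays lay on slide 2 and the cultured kidney on slide 1. With slide as a block 0 members were called either way, with day 0 organoids as the only group on both slides. Median scaling gave 15 higher and 0 lower. Without day 7 replicate 1 the counts were 2 and 0, without day 7 replicate 2 they were 7 and 0, without day 7 replicate 3 they were 3 and 1, without day 0 replicate 1 they were 5 and 0, and without day 0 replicate 3 they were 6 and 0. Col8a1 lay between 2.32 and 2.54 with an array left out. Of 5 smooth muscle markers 4 were higher in day 7 organoids, with sums of 9.0 to 9.31 there and 7.43 in cultured kidney, and their part was not tested.

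**Figure D3:**
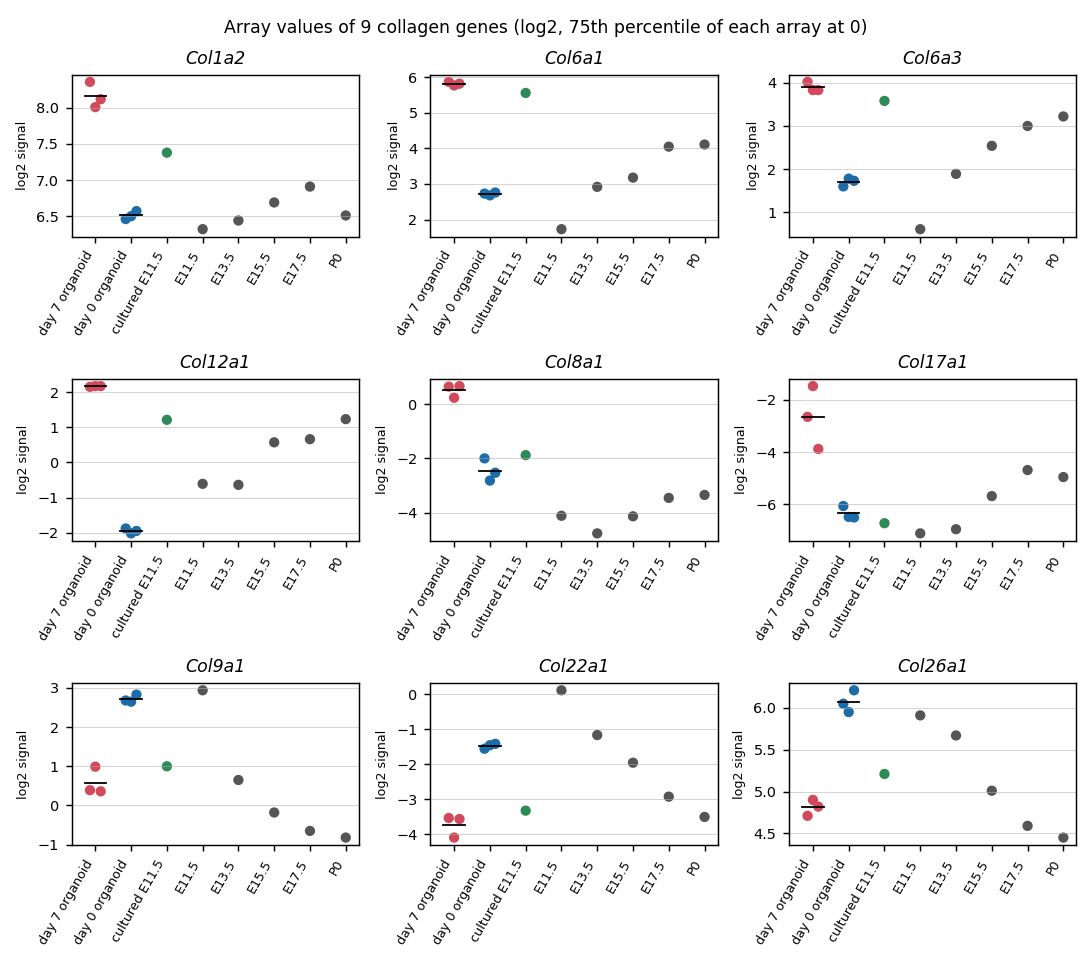
Values of 9 collagen genes on each of the 12 arrays, in log2 units with the array's 75th percentile at 0 and a separate axis range per panel; bars are means of 3 organoid arrays, and kidney points are single arrays. In the Col8a1 panel day 7 organoids (0.24 to 0.67) lie above every kidney array, and in the Col9a1 and Col22a1 panels fresh E11.5 kidney is highest.

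Day 0 organoids were compared with the fresh E11.5 kidney whose age matches their stroma. Of 32 members tested, 15 differed, 9 higher in day 0 organoids and 6 lower, against 32.9% of 17247 genes. Over all genes 2996 were higher and 2679 lower. Col15a1, among the 6 lower, was below background on all 3 day 0 arrays. It was tested only because the kidney array was above background, so it had to be lower. Among the higher ones, Col8a1 was 3.19-fold higher (-2.45 ± 0.41 in day 0 organoids, -4.12 in kidney), Col24a1 2.47-fold, Col6a3 2.13-fold and Col6a1 1.99-fold. Col18a1 was 3.34-fold lower (3.01 ± 0.32 in day 0 organoids, 4.75 in kidney), Col22a1 3.0-fold, Col12a1 2.53-fold and Col2a1 2.27-fold. Beside the lower Col22a1, 4 of 7 skeletal muscle markers tested were higher in day 0 organoids and 1 was lower, with Myog at least 39.6-fold higher. Col15a1 was at least 1.47-fold lower, but it did not pass with slide as a block or without day 0 replicate 3 (adjusted p = 0.0513 in both), and with normexp correction it was higher by 0.348. Col6a2 did not pass with slide as a block (adjusted p = 0.0673), nor when a single organoid array other than day 7 replicate 2 was left out. Col1a2 and Col3a1 did not pass the test (0.20 ± 0.16 and 0.21 ± 0.14). All 5 smooth muscle markers were higher in day 0 organoids, with sums of 4.86 to 5.30 there and 2.74 in kidney. The 6 endothelial markers that rose in culture were lower in day 0 organoids than in kidney, beside Col15a1 and Col18a1, and the median of the 7 was -4.80 as fitted, or -3.15 with markers below background at their bound. The part of either cell type in these values was not tested. The count of 9 came to 17 with normexp correction and to 3 on slide 1 alone, which holds 2 day 0 arrays. Col12a1, Col16a1, Col6a2 and Col8a2 did not pass as the mean of their probes (-0.303, 0.375, 0.399 and -0.011). These means include a Col12a1 probe above background on 0 of 12 arrays and a Col16a1 probe above it on 1 of 12.

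Fresh kidney was followed over 5 stages with 1 array each, by the slope per stage step. Col6a1, Col6a2, Col6a3, Col6a4 and 3 FACIT chains increased with stage, and Col9a1, Col22a1, Col11a1, Col26a1 and Col23a1 decreased. Among these, the slope of Col6a2 did not pass with median scaling or with any single stage left out. The slope of Col23a1 did not pass with median scaling, with no filter on dim probes, or without E13.5, E15.5, E17.5 or P0. Of 35 members tested, 10 rose and 5 fell, against 12.5% and 14.7% of 19030 genes. Leaving out a stage changed the counts: 5 rose and 3 fell without E15.5, 0 and 1 without E17.5, and 1 and 1 without P0. Of 5 beaded genes tested 4 rose, while Col6a6 had a slope of -0.21 that did not pass, and of 9 FACIT genes 3 rose and 2 fell. Of the 11 fibrillar chains 0 rose and 1 fell over the stages at this threshold, and Col1a1 and Col1a2 stayed within 5.38 to 5.76 and 6.32 to 6.91.

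Col6a4 had -5.95 at E11.5, -4.04 at E13.5, -3.71 at E15.5, -2.78 at E17.5 and -2.16 at P0, a slope of 0.88 ± 0.12 (adjusted p = 0.013), and was below background at E11.5. Col6a3 had 0.61, 1.89, 2.54, 3.0 and 3.22 in stage order, a slope of 0.63 ± 0.10. Both went up at each of the 4 steps, as did Col6a1 and Col16a1. Col16a1 had 1.77, 3.28, 3.68, 4.12 and 4.28, though as the mean of its probes its slope was 0.243 and did not pass. That mean includes a probe above background on 1 of 12 arrays. Col14a1 had 0.61, 1.77, 2.82, 3.25 and 3.07. Col17a1 had -7.12, -6.96, -5.69, -4.69 and -4.96 and was above background at 1 stage only, so its slope of 0.66 rests mostly on values with no measured level, and it came to -0.022 with normexp correction. Smooth muscle markers moved the same way, with a summed log2 level of 2.74, 3.13, 5.17, 6.25 and 6.33, and all 5 rose, whereas the sums for renal stroma markers were 7.29, 6.96, 6.81, 6.60 and 6.21. Their part in the collagen slopes was not tested.

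Col22a1 had 0.11 at E11.5, -1.17 at E13.5, -1.96 at E15.5, -2.93 at E17.5 and -3.51 at P0, a slope of -0.90 ± 0.07 (adjusted p = 0.0070). Col9a1 had 2.94, 0.65, -0.18, -0.65 and -0.82, so most of its fall came before E13.5, and P0 was 13.6-fold below E11.5. Col11a1, a minor fibrillar chain, had -0.39, -0.65, -1.01, -1.51 and -2.39, and Col26a1 had 5.91, 5.67, 5.01, 4.59 and 4.45. Both decreased at each step. Col23a1, a transmembrane chain, had 0.08, 0.29, -0.29, -0.42 and -0.98. Summed skeletal muscle markers were 0.84, 0.42, -0.06, -0.50 and -0.87 over the same stages, and this was not tested against Col22a1.

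**Figure D4:**
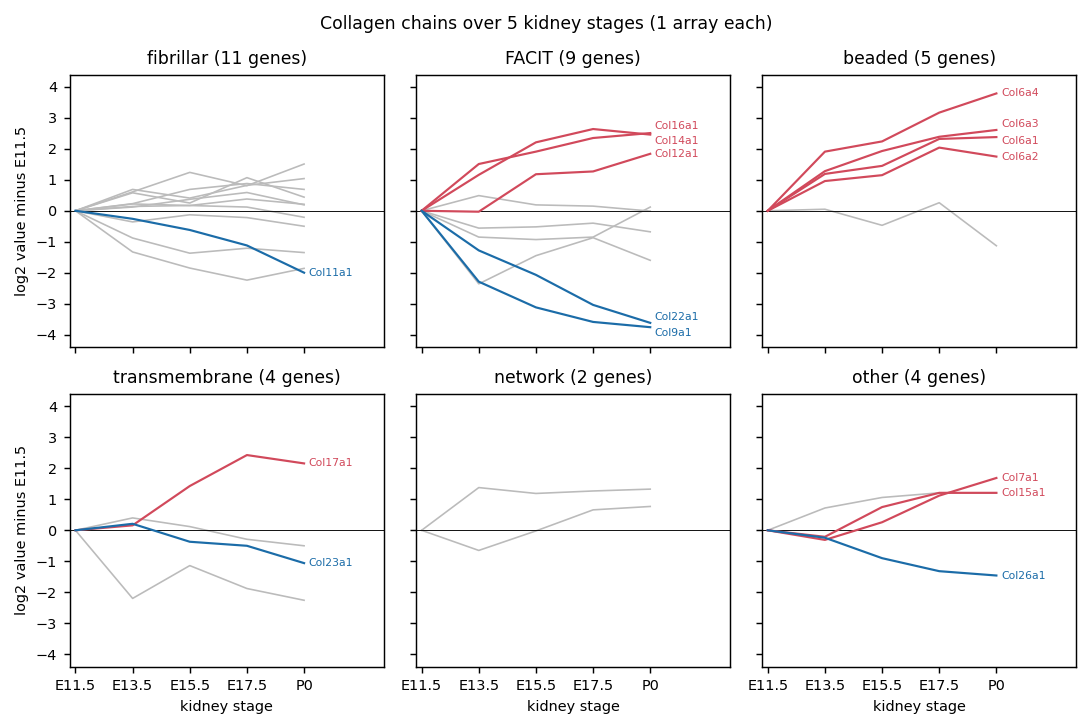
Log2 value at each kidney stage minus the value at E11.5, 1 line per collagen gene tested and 1 array per stage, by class; red lines rose, blue lines fell and grey lines did not pass the slope test. Col6a1, Col6a2, Col6a3 and Col6a4 reach 1.75 to 3.78 at P0 while Col6a6 reaches -1.13, Col9a1 and Col22a1 reach -3.77 and -3.62, and the fibrillar lines end between -2.0 and 1.51.

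Set against the whole span of fresh stages, 21 of 35 members above background in either were higher on each of the 3 day 7 arrays than at any of the 5 stages, 2 were lower and 12 overlapped. The same held for 14.9% and 13.8% of 19087 genes. This was not tested, and the slides differ. Col8a1 stood at 0.24 to 0.67 at day 7 and -4.77 to -3.35 over the stages, and Col6a1 at 5.77 to 5.87 at day 7 and 1.73 to 4.11 over the stages. Col14a1 (2.30 to 2.84 at day 7, 0.61 to 3.25 over the stages), Col18a1 (5.46 to 5.96 at day 7, 4.75 to 5.96 over the stages) and Col26a1 (4.71 to 4.90 at day 7, 4.45 to 5.91 over the stages) lay within the range of the stages. Col22a1 lay below it, at -4.10 to -3.54 at day 7 and -3.51 to 0.11 over the stages.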

How the data were processed

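Per the labels, total RNA was labelled with Cy3 and hybridised to 1 one-colour Agilent array per sample. The authors deposited the Feature Extraction output, whose headers name version 11.5.1.1 (the submitters' processing notes name 10.7.3.1): the intensity of each spot, background-subtracted per the file headers, and flags of 0 or 1. They also deposited a table of log2 values, which differed from the values used here by 1 constant per array.

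Each intensity was put on a log2 scale, from which the 75th percentile of that array was subtracted. Control and outlier spots (108 to 206 per array) were left out, and no spot was saturated. The probe with the highest mean over 12 arrays stood for a gene. Testing required signal well above background throughout at least 1 group compared. For kidney stages, and for cultured against fresh kidney, 1 such array sufficed. Moderated tests were run over all such genes with limma 3.58.1 under R 4.3.3 (two-sided, Benjamini-Hochberg, called at an adjusted p under 0.05). Figures were drawn with matplotlib 3.10.9 (Python 3.11.15), and files were read with the R package data.table (version 1.17.8). Organoids were fitted on 6 arrays. Kidney comparisons used 8 arrays, where the spread of a single kidney array was taken to equal that of the organoids. Stages were fitted as a slope per step. Array values were printed for up to 4 called members per class, 5 slopes each way, members of the test between the organoid and kidney changes, and up to 5 genes of the synthesis and receptor lists. Other members may be named in an account of their class. Members, lists and rules were chosen with earlier results of these data known. Tests were checked on simulated data. A change of 1 log2 unit was recovered in 79% of simulated cases for organoid culture. Recovery was 48% for day 0 organoids against E11.5 kidney and 59% for day 7 organoids against cultured kidney. For the difference between the organoid and kidney changes it was 12%. Far fewer genes were changed in the simulations than were called in the data, which made the adjusted p threshold stricter there. These recoveries therefore do not give the share found in the data itself, and members that did not pass may still differ. Simulated kidney arrays were given the organoid spread as well.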

Additional observations from a re-analysis of the deposited data

Results flagged for a closer look

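The 6 values below, each from a test of the difference between the organoid change and the kidney change over 7 days of culture, met the threshold (limma, adjusted p under 0.05). They were 4 of 34 members (11.8%) with a more positive change in organoids and 2 (5.88%) with a less positive one. Over all genes the shares were 8.47% and 6.85%, close to those of the members. The differences were 2.30 for Col12a1, 1.66 for Col6a4, 2.12 for Col15a1, 1.63 for Col18a1, -0.73 for Col6a1 and -0.78 for Col6a3. The kidney side was 1 cultured and 1 fresh array. Fresh and cultured kidney were on slide 1 and all day 7 arrays on slide 2. Col6a4 was below background in fresh kidney and on all 3 day 0 arrays, and Col15a1 on all 3 day 0 arrays, so their differences depend on values with no measured level.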

How the results depend on the processing

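The counts for organoid culture stayed within 1.5 times under every alternative run, with 20 to 25 members higher and 5 to 7 lower. On slide 2, where day 0 is 1 array assumed to vary like the day 7 arrays, they were 24 and 5. They were 25 and 5 with replicate number as a block, although the numbers do not pair the arrays (correlations of -0.137 to -0.008), and all 29 calls held under the block. Leaving out each array gave 24 to 25 higher and 5 to 6 lower. The other comparisons moved. For day 0 organoids against E11.5 kidney, 17 members were higher with normexp and 3 on slide 1 alone, and 8 to 9 were higher and 6 to 7 lower with an array left out. For day 7 organoids against cultured kidney, 13 were higher and 2 lower with normexp, 15 and 0 with median scaling, 3 and 0 with no filter on dim probes, and 0 and 0 with slide as a block. With an array left out, 2 to 7 were higher and 0 to 1 lower. The median of all genes in that comparison was 0.216 with median scaling and 0.025 with the 75th percentile. For the difference between the organoid and kidney changes, 11 members were higher and 8 lower with normexp, 2 and 1 with no filter, 7 higher where genes were above background on every array and 9 higher with trend and robust moderation. None was lower there with median scaling (0), and 1 was lower with slide as a block. With an array left out, 2 to 6 were higher and 0 to 2 lower. The stage trend gave 0 to 8 members higher and 1 to 6 lower with a stage left out. Over all genes, the trend called 2384 higher and 2799 lower, or 1776 and 970 with median scaling. The difference between changes called 1524 and 1234, or 1483 and 735 with median scaling and 2695 and 5036 with normexp. Day 0 organoids against E11.5 kidney called 2996 and 2679, or 6615 and 3205 with normexp.

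Signs changed for 6 single values. With normexp, Col11a2 (-0.132) and Col13a1 (-0.085) turned in organoid culture, Col15a1 turned in day 0 organoids against E11.5 kidney (0.348) and in the difference between changes (-0.105), and Col17a1 turned in the stage trend (-0.022). With the mean of probes, Col8a2 turned in day 0 organoids against E11.5 kidney (-0.011). The cause was not tested. Col13a1, Col15a1 and Col17a1 were below background on some arrays, and signal over background limits their values.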
